A study of Mus musculus with 6 samples.

Results

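The loci of 4 NF-κB subunits (Rela, Relb, Nfkb1 and Nfkb2) and 2 feedback inhibitors (Nfkbia and Tnfaip3) were followed in H3K27ac ChIP-seq peak lists of RAW264.7 cells, a mouse macrophage-like line. H3K27ac, acetylation of histone H3 at lysine 27, marks active promoters and enhancers. A locus was the gene with about 10 kb on each side in mouse build mm39, and its members were the peaks overlapping it in each list. These came to 22 peaks in Bmal1 knockout cells (Bmal1KO), 15 in Mfp2 knockout cells (Mfp2KO) and 17 in wild-type cells (WT), 54 of the 79419 peaks in the 3 lists. Each genotype had 1 ChIP library, with an antibody to H3K27ac, and 1 input library, 6 libraries in all. MFP2 is a peroxisomal enzyme of fatty acid breakdown, BMAL1 a DNA-binding activator at the heart of the circadian clock, and the series' title links the pair to inflammation in macrophages. The WT samples are titled naive, a word the labels do not define, and their genotype is given as wild type. All cells carried the RAW264.7 background, the labels name no stimulus or time of day, and whether each knockout line is 1 clone is not stated in them.

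NF-κB is a family of dimeric transcription factors that drive inflammatory genes in macrophages. In resting cells the inhibitor IκBα, made from Nfkbia, holds dimers of RELA and p50 in the cytoplasm, and its destruction after a Toll-like receptor or cytokine signal frees them. RELB pairs with p52 in the slower non-canonical branch. Nfkbia and Tnfaip3, which encodes the ubiquitin-editing enzyme A20, are themselves NF-κB targets whose products damp the response.

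The ChIP libraries held 12.5 M tags in Bmal1KO, 15.8 M in Mfp2KO and 15.8 M in WT, and the share of tags in peaks in the authors' headers was 37.4% in Bmal1KO, 57.2% in Mfp2KO and 38.7% in WT. Peak values are the authors' tags normalized to 10 M per library. With 1 library per genotype no difference was tested, and no p-value is given. The 95% intervals on ratios and shares cover counting alone, and sequenced tags are not independent molecules where PCR duplicates remain. Each list was called over its own input with its own thresholds, so a missing peak is not absence of the mark. Macrophage marker genes, the Bmal1 and Mfp2 genes and other genes of the pathway were not analysed here.

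All 6 loci had a peak within 1 kb of the approximate gene start, here called the start peak, in all 3 lists. Summed over the loci, these start peaks held most of the tags: 71.5% in Bmal1KO, 80.0% in Mfp2KO and 77.2% in WT. At Relb the start peak held less, 40.6% in Bmal1KO, 54.3% in Mfp2KO and 47.2% in WT. Relative to WT, both knockouts had more tags at Rela, Relb and Nfkb2 and fewer at the inhibitors Nfkbia and Tnfaip3, while Nfkb1 was level in Bmal1KO and slightly above WT in Mfp2KO, or below it as a share of all tags in peaks. The start peak of Tnfaip3 was not lower in normalized tags, and its Mfp2KO ratio was above WT in 3 of 11 ways of counting. Among 50 kb bins with at least 300 tags over the 3 lists, 51.6% were lower than WT in Bmal1KO and 24.8% in Mfp2KO. Of the 6 loci, the highest ratio was at Nfkb2 in Mfp2KO, with 4.23-fold the WT tags. The 2 comparisons with WT share the same WT library, so the likeness between them is not independent. For Mfp2KO the median tag ratio over the 6 loci was close to that of other acetylated regions.

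**Figure D1:**
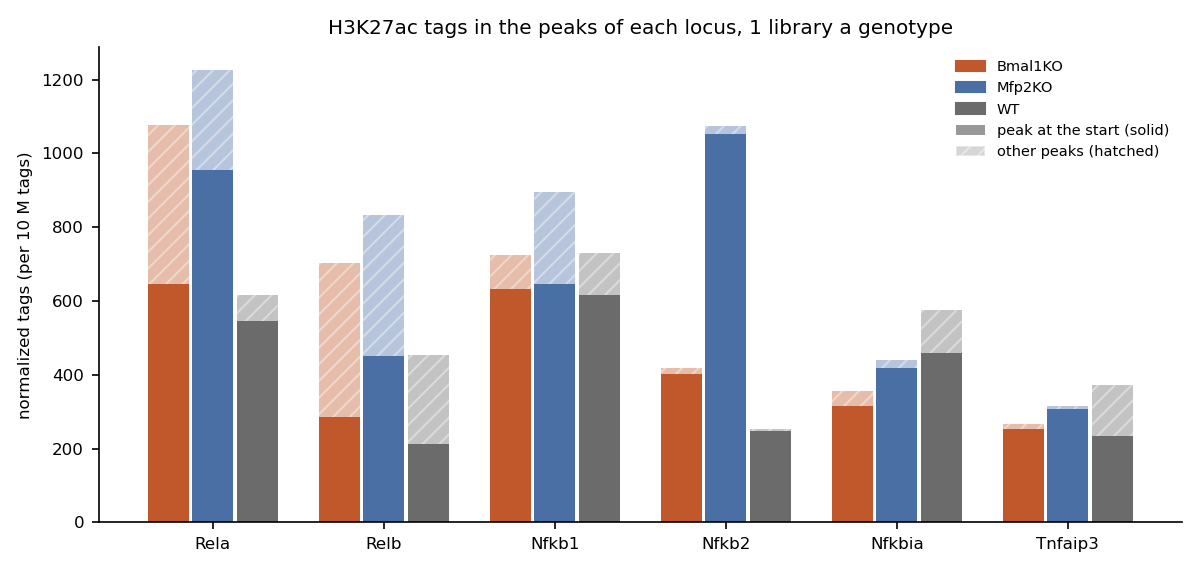
Normalized H3K27ac tags (per 10 M tags of the library) summed over the peaks of each locus in Bmal1KO, Mfp2KO and WT, 1 library a genotype, with the peak at the gene start solid and other peaks hatched. At Nfkb2 the bars reach 418 tags in Bmal1KO, 1074 in Mfp2KO and 254 in WT, nearly all in the start peak, whereas at Tnfaip3 the hatched part is 12.4 tags in Bmal1KO, 7.6 in Mfp2KO and 138.1 in WT.

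The promoters of 4 of the members are shown because the start peaks held most of the tags summed over the loci. NF-κB genes are also known to be regulated by NF-κB itself. The table used here had no entry for Relb and Nfkb1. Each sequence is the 250 bases before the most upstream start listed by RefSeq for GRCm38.p6, read 5′ to 3′ on the gene's strand, and cannot be laid base by base on the mm39 peaks. The positions are chr19:5637291-5637540 (plus strand) for Rela, chr19:46304487-46304736 (plus) for Nfkb2, chr12:55492648-55492897 (minus) for Nfkbia and chr10:19015411-19015660 (minus) for Tnfaip3. Capitals mark matches, on either strand, to a narrow κB motif, the E-box that BMAL1 with CLOCK is known to bind, or the AP-1 motif.
Rela: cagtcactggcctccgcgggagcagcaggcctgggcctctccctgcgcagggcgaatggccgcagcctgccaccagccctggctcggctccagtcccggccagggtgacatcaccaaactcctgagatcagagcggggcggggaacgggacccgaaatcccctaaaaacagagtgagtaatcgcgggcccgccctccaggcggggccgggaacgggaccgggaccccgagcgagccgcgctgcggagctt
Nfkb2: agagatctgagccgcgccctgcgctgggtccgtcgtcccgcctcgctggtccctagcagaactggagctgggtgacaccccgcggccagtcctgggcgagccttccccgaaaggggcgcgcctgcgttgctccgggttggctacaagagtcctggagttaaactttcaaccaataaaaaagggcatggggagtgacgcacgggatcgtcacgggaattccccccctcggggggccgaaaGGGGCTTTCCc
Nfkbia: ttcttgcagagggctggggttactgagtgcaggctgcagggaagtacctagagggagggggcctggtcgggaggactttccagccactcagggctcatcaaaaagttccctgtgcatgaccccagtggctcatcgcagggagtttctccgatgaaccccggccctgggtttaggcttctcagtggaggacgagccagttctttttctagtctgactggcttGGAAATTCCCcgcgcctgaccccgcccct
Tnfaip3: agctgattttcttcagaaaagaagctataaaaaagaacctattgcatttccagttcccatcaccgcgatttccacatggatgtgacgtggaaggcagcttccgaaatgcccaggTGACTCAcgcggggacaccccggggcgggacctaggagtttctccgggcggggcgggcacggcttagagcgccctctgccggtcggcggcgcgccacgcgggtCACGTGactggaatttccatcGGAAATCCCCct

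The narrow κB motif, GGG then any 2 bases then TTTCC, was chosen after the sequences were read and occurs in 1.63% of the 32851 promoters of the table, each 300 bases long. It matched 11 bases before the start of Nfkb2, 29 before that of Nfkbia and 12 before that of Tnfaip3, and did not match in the Rela window. A looser motif, GGG then any 5 bases then CC, takes in the narrow one and matched in all 4 windows, but it occurs in 50.8% of promoters. The E-box CACGTG, held by 7.15% of promoters, and the AP-1 motif TGACTCA, held by 5.20%, matched in Tnfaip3 only, at 33 and 136 bases before the start. A match is a string of letters and was not tied to binding by any value here.

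**Figure D2:**
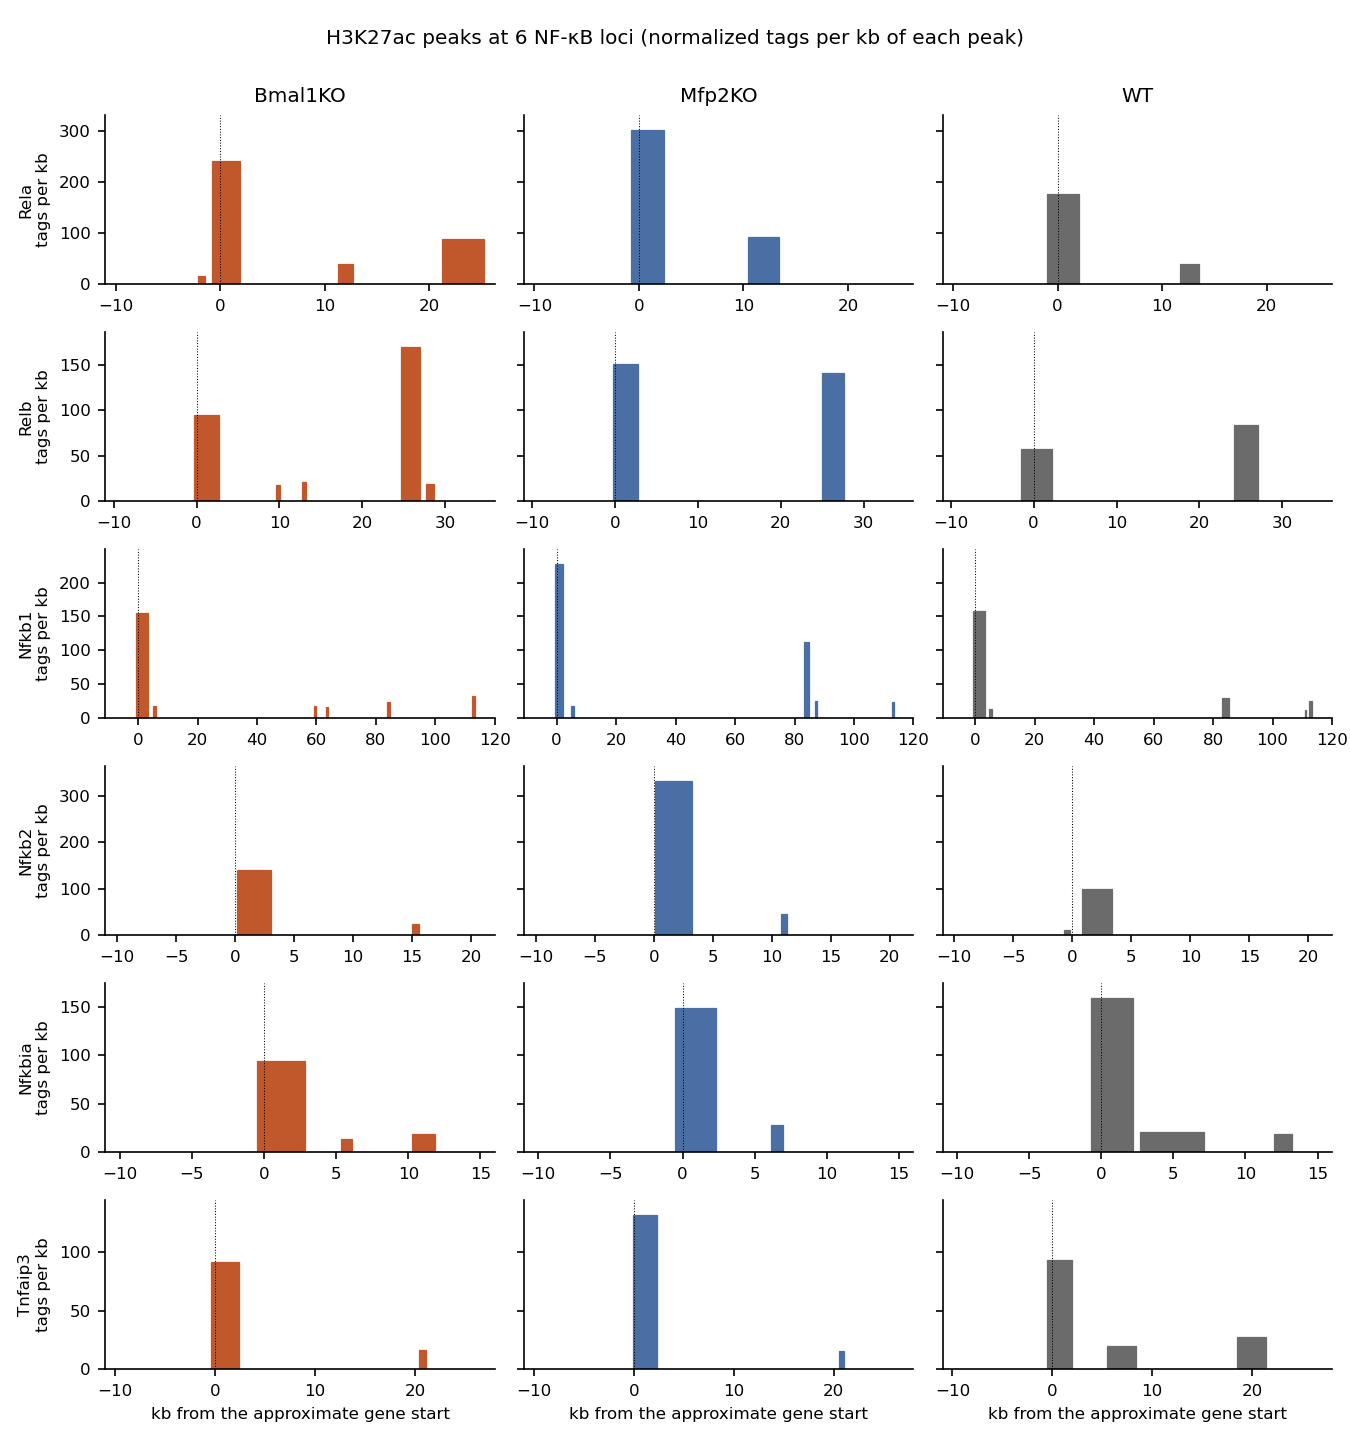
Peaks of each locus drawn by their distance in kb from the approximate gene start (dotted line, good to about 1 kb), with normalized tags per kb of the peak on the y axis, for Bmal1KO, Mfp2KO and WT. Every panel has a peak within 1 kb of the approximate start, and of the 3 lists WT alone has a broad peak between 5.44 and 8.42 kb from the Tnfaip3 start. Peaks that do not reach into a locus window are not drawn.

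Rela encodes the main transactivating subunit of canonical NF-κB. Its locus, chr19:5677000-5709000, held 1076 tags over 8.85 kb of called sequence in Bmal1KO and 1227 tags over 6.11 kb in Mfp2KO, against 617 tags over 4.85 kb in WT. Per kb of called sequence this was 122 tags in Bmal1KO, 201 in Mfp2KO and 127 in WT. The locus ratio to WT was 1.74-fold in Bmal1KO (interval 1.61 to 1.90) and 1.99-fold in Mfp2KO (1.84 to 2.15). The start peak alone had 645.8 tags in Bmal1KO, 955.9 in Mfp2KO and 546.8 in WT, so the start ratio was smaller in Bmal1KO, at 1.18-fold (1.07 to 1.30), than the locus ratio. In Mfp2KO the start ratio was 1.75-fold (1.61 to 1.90). Another peak, around the 3′ end of the gene, had 53.9 tags in Bmal1KO, 270.9 in Mfp2KO and 70.0 in WT.

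Much of the Bmal1KO excess at Rela lay at the edge of the window. A Bmal1KO peak of 365.4 tags at chr19:5708155-5712254 reached into the window with 20.6% of its length. Over the same acetylated region, the Mfp2KO peak of 1073.2 tags and the WT peak of 401.8 tags began just outside the window and were not counted. The region, merged over the lists, held 456 tags in Bmal1KO, 1073.2 in Mfp2KO and 401.8 in WT. The next gene on that side, Sipa1, has its start 15.6 kb beyond the end of Rela, a gene of 10.7 kb, in GRCm38.p6. From the Rela start, the WT peak ran from 22.1 to 27.3 kb and the Mfp2KO peak from 22.6 to 27.9 kb. By these distances the region lies at about the Sipa1 start, and its tags cannot be credited to Rela. Counting only the part of each peak inside the window, the Rela ratio in Bmal1KO was 1.27-fold (1.17 to 1.39) and that in Mfp2KO stayed at 1.99-fold. One weak Bmal1KO peak, of 10.8 tags, lay 446 bp upstream of the WT start peak and had no counterpart in the other lists.

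Relb encodes the subunit of the non-canonical dimers. Its locus, chr7:19330000-19374000, held 702 tags over 7.17 kb in Bmal1KO and 833 tags over 5.69 kb in Mfp2KO, against 453 tags over 6.57 kb in WT. The ratios were 1.55-fold (1.40 to 1.71) in Bmal1KO and 1.84-fold (1.68 to 2.02) in Mfp2KO. At the start, 285.2 tags in Bmal1KO and 452.1 in Mfp2KO stood against 213.7 in WT, ratios of 1.33-fold (1.15 to 1.55) in Bmal1KO and 2.12-fold (1.86 to 2.42) in Mfp2KO. Tags per kb of the start peak were 95.3 in Bmal1KO and 152 in Mfp2KO, against 57.7 in WT. The start peak spanned 2994 bp in Bmal1KO and 2982 bp in Mfp2KO, against 3702 bp in WT.

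Beyond the 3′ end of Relb, 24.1 to 27.6 kb from its start, a strong peak had 379.4 tags in Bmal1KO, 381.2 in Mfp2KO and 239.0 in WT. In GRCm38.p6, Relb spans 23.2 kb and the start of Clasrp, a splicing-factor gene on the same strand, lies 1.70 kb beyond its end. The peak thus lies at about the Clasrp start, and its tags cannot be credited to Relb. Without the peaks beyond the 3′ end, the Relb log2 ratio to WT was 0.51 in Bmal1KO and 1.08 in Mfp2KO. Bmal1KO also had 3 weak peaks of 8.78, 10.8 and 17.6 tags at Relb that neither other list had. The last lay 91 bp from the Mfp2KO peak beyond the gene, and the other pair lay inside the gene, more than 6 kb from any Mfp2KO or WT peak.

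Nfkb1 encodes p105, the precursor of p50. Its locus, chr3:135280000-135408000, was the most even of the 6, with 726 tags over 8.07 kb in Bmal1KO, 895 over 6.81 kb in Mfp2KO and 730 over 8.79 kb in WT. The start peak had 632.3 tags in Bmal1KO, 645.1 in Mfp2KO and 615.5 in WT, a ratio to WT of 1.03-fold (0.935 to 1.13) in Bmal1KO and 1.05-fold (0.959 to 1.15) in Mfp2KO, both intervals spanning equality. Taken as a share of all tags in peaks, the log2 start ratio was 0.09 in Bmal1KO and -0.49, below WT, in Mfp2KO. The Mfp2KO start peak was shorter, so its tags per kb, at 227, stood above the 155 of Bmal1KO and the 157 of WT.

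Most of the tags by which Mfp2KO exceeded WT at Nfkb1 lay in a peak inside the gene, 83.0 to 85.4 kb from its start. It had 30.7 tags in Bmal1KO, 201.2 in Mfp2KO and 70.3 in WT. Outside the start peak, the locus ratio to WT was 0.812-fold (0.637 to 1.03) in Bmal1KO and 2.17-fold (1.81 to 2.60) in Mfp2KO. A weak peak about 5 kb from the start had 14.4 tags in Bmal1KO, 14.6 in Mfp2KO and 14.6 in WT, so it was level over the lists. One beyond the 3′ end had 31.1 tags in Bmal1KO, 15.8 in Mfp2KO and 23.7 in WT. Peaks in 1 list alone were also weak, with 8.38 and 8.78 tags inside the gene in Bmal1KO, 18.1 tags inside the gene in Mfp2KO and 6.33 tags beyond its 3′ end in WT.

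Nfkb2 encodes p100, which restrains RELB and is processed to p52. Its locus, chr19:46282000-46312000, held 418 tags over 3.50 kb in Bmal1KO and 1074 tags over 3.67 kb in Mfp2KO, against 254 tags over 2.99 kb in WT. The ratio to WT was 1.65-fold (1.44 to 1.88) in Bmal1KO and 4.23-fold (3.79 to 4.73) in Mfp2KO. The difference sat in the start peak, with 403.3 tags in Bmal1KO, 1051.6 in Mfp2KO and 248.2 in WT. By tags per kb of start peak, Nfkb2 stood behind Rela and Nfkb1 in Bmal1KO (141), above the other loci in Mfp2KO (332), and behind Rela, Nfkbia and Nfkb1 in WT (99.5).

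Among 50 kb bins of the genome holding at least 300 tags over the 3 lists, 4.49% had a higher Mfp2KO ratio than the Nfkb2 locus. In Bmal1KO, 12.0% of such bins had a ratio above that of Nfkb2. These bins are wider than the 30 kb window of Nfkb2. The start peak alone was set against regions merged over the lists, called in all 3 and holding at least 300 tags. Of these, 6.25% had a higher ratio in Mfp2KO and 15.8% in Bmal1KO. With 25 kb each side of the gene, which takes in peaks further downstream, the Nfkb2 log2 ratio was 1.34 in Mfp2KO and 0.28 in Bmal1KO. Input at the Nfkb2 start peak was 13.5 tags per kb in Bmal1KO, 14.7 in Mfp2KO and 11.3 in WT. The start peaks began 0.150 kb (Bmal1KO), 0.079 kb (Mfp2KO) and 0.857 kb (WT) downstream of the approximate start, which is good to about 1 kb. The Mfp2KO and Bmal1KO peaks thus began further 5′ than the WT start peak, but which peaks reached the true start cannot be told. The lncRNA gene 4833438C02Rik on the opposite strand and the 3′ part of Psd overlap Nfkb2 in GRCm38.p6, and acetylation has no strand. The remaining Nfkb2 peaks were each in 1 list, with 14.4 tags in Bmal1KO, 22.5 in Mfp2KO and 5.70 in WT. The WT one lay 372 bp from the Bmal1KO start peak and 301 bp from that of Mfp2KO.

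Nfkbia was the locus with the lowest ratio to WT in both knockouts. At chr12:55526000-55550000 it held 357 tags over 5.71 kb in Bmal1KO and 441 tags over 3.64 kb in Mfp2KO, against 576 tags over 8.57 kb in WT. The ratios were 0.620-fold (0.552 to 0.695) in Bmal1KO and 0.767-fold (0.693 to 0.847) in Mfp2KO. Per kb of called sequence the locus had 62.5 tags in Bmal1KO and 121 in Mfp2KO, against 67.2 in WT. WT had the longest called sequence there, much of it in a long, low peak, so these densities mix peaks of different kinds. Most of the Bmal1KO deficit sat in the start peak, where 315.5 tags in Bmal1KO stood against 458.4 in WT, a ratio of 0.688-fold (0.607 to 0.778). For Mfp2KO the start peak had 417.9 tags, and its ratio of 0.912-fold had an interval (0.818 to 1.01) that spanned equality. Taken as a share of all tags in peaks, the log2 start ratio was -0.70 in Mfp2KO and -0.49 in Bmal1KO, both below WT. Tags per kb of the start peak were 94.6 in Bmal1KO and 149 in Mfp2KO, against 159 in WT. With 25 kb on each side of the gene, where Mfp2KO had more tags in the distal peaks, the Mfp2KO locus ratio was 0.19 on the log2 scale, above WT.

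The rest of the Nfkbia difference lay behind the gene. A WT peak of 93.1 tags ran for 4432 bp, 2.70 to 7.14 kb from the start, over and beyond the 3′ end of this short gene. Within its span Bmal1KO had a peak of 10.8 tags over 769 bp and Mfp2KO one of 23.4 tags over 835 bp. Further out, a Bmal1KO peak of 30.7 tags and a WT peak of 24.1 tags lay 99 bp apart without overlapping, and Mfp2KO had no peak within 3290 bp of the Bmal1KO one. The start of the lncRNA gene Gm36634, on the opposite strand, is 0.648 kb upstream of Nfkbia in GRCm38.p6, and the start peak cannot be split between them.

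Tnfaip3 had fewer tags over the locus in both knockouts, although in normalized tags its start peak was not lower. The locus, chr10:18866000-18902000, held 266 tags over 3.53 kb in Bmal1KO and 316 tags over 2.84 kb in Mfp2KO, against 373 tags over 8.42 kb in WT. The locus ratios were 0.714-fold (0.623 to 0.819) in Bmal1KO and 0.848-fold (0.749 to 0.955) in Mfp2KO. Tags per kb of called sequence went the other way, at 75.3 in Bmal1KO and 111 in Mfp2KO, against 44.3 in WT. At the start the peak had 253.7 tags in Bmal1KO, 308.3 in Mfp2KO and 234.6 in WT, ratios to WT of 1.08-fold (0.929 to 1.26) in Bmal1KO and 1.31-fold (1.15 to 1.51) in Mfp2KO. As a share of all tags in peaks, the Mfp2KO start ratio was -0.17 on the log2 scale, below WT.

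The Tnfaip3 tags that WT had in excess were in broad, low peaks away from the start. The WT peak at chr10:18883577-18886558, inside the gene, had 58.3 tags over 2981 bp and no overlapping peak in either knockout, the nearest being 3052 bp away in Bmal1KO and 3153 bp away in Mfp2KO. Of the 3720 WT peaks with 50 to 100 tags genome-wide, 4.65% had no peak in either knockout. That set is not matched for density, and this peak had 19.6 tags per kb, below the WT list median of 23.9. Beyond the 3′ end, about 20 kb from the start, a peak had 12.4 tags over 760 bp in Bmal1KO, 7.60 tags over 500 bp in Mfp2KO and 79.8 tags over 2918 bp in WT. Away from the start, the Tnfaip3 ratio to WT was thus 0.0898-fold (0.0519 to 0.154) in Bmal1KO and 0.0550-fold (0.0280 to 0.0982) in Mfp2KO. Low signal that passed the threshold in WT and missed it in a knockout counts here as 0.

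Set beside the rest of the genome, the Bmal1KO loci were mixed. At 1.5-fold, 3 of the 6 loci were higher in Bmal1KO than in WT (Rela, Nfkb2 and Relb), against 17.2% of 8462 bins of 50 kb with at least 300 tags. In the other direction 1 of the 6, Nfkbia, was lower, against 23.2% of the bins. The median log2 ratio over the loci was 0.31, from -0.69 at Nfkbia to 0.80 at Rela, and the median over the bins was -0.030. Over all 11490 bins with a peak in both lists, 16.1% were higher and 30.9% lower. With only the tags inside the windows, 2 loci were higher and the median was 0.17. Without the peaks at or beyond the 3′ ends of Relb and Rela, 1 locus (Nfkb2) was higher, with log2 ratios of 0.26 at Rela and 0.51 at Relb. At Rela that count also left out the peak around the 3′ end of the gene. At the start peaks, 1 locus (Nfkb2) was higher and 0 were lower at 1.5-fold, against 21.1% and 19.8% of 9826 merged regions that all lists shared and that held at least 300 tags.

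In Mfp2KO the same cut gave 3 of 6 loci higher than WT (Nfkb2, Rela and Relb), against 51.3% of 8442 bins, and 0 lower, against 11.8%. Over all 11071 bins with a peak in both lists, 46.6% were higher and 19.7% lower. The median log2 ratio over the loci was 0.59 and that over the bins was 0.61, so the loci as a group sat where other acetylated bins did. At the start peaks 3 of 6 were higher, against 55.4% of the regions, and 0 were lower, against 9.86%. The locus log2 ratios were 2.08 at Nfkb2, 0.99 at Rela, 0.88 at Relb, 0.29 at Nfkb1, -0.24 at Tnfaip3 and -0.38 at Nfkbia. A ratio below that of Nfkbia was found in 14.97% of the bins, and one below that of Tnfaip3 in 17.9%.

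Because the Mfp2KO library had more of its tags in peaks, the Mfp2KO ratios are lower by 0.56 on the log2 scale when tags are taken as a share of all tags in peaks. The median over the loci was then 0.025. At 1.5-fold, 1 locus was higher (Nfkb2, at 1.52) and 2 were lower (Nfkbia at -0.95 and Tnfaip3 at -0.80), against 25.5% and 24.1% of the bins. Rela, at 0.43, and Relb, at 0.32, stayed above 0 on this scale, and Nfkb1, at -0.27, was below it. At the Mfp2KO start peaks on this scale, 1 (Nfkb2) was higher and 1 (Nfkbia) was lower at 1.5-fold. Among the 9826 merged regions these shares were 31.2% and 21.7%. In Bmal1KO the same scaling left 3 loci higher, against 19.4% of the bins, and 1 lower, against 21.0%.

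**Figure D3:**
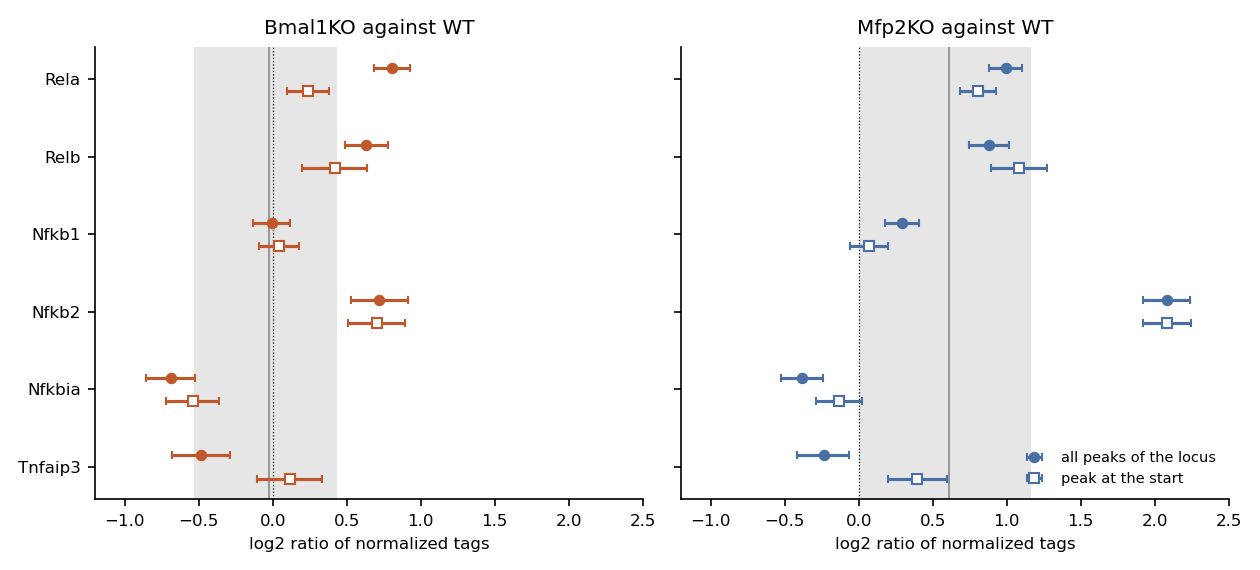
Log2 ratio of normalized tags, knockout over WT, for all peaks of each locus (filled circles) and for the start peak (open squares), with 95% counting intervals. The grey band is the middle 50% of genome bins with at least 300 tags and the grey line their median (-0.030 for Bmal1KO and 0.61 for Mfp2KO); Nfkb2 lies right of the band in both panels, and the Nfkbia locus lies left of it.

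The knockouts were also set against each other without WT. All 6 loci had fewer tags in Bmal1KO than in Mfp2KO, as did 87.0% of 8421 bins. At 1.5-fold, 1 locus was lower in Bmal1KO (Nfkb2, 0.389-fold, 0.352 to 0.430), against 47.2% of bins, and 0 were higher, against 4.44%. The median log2 ratio was -0.28 over the loci and -0.55 over the bins. As a share of all tags in peaks the median over the loci was 0.34.

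Input was also measured at the start peaks. It ran from 4.96 to 13.5 tags per kb in Bmal1KO, 9.75 to 19.2 in Mfp2KO and 5.76 to 11.5 in WT, and was higher in Mfp2KO than in WT at each of the 6. The medians over all peaks of a list were 4.31 in Bmal1KO, 5.61 in Mfp2KO and 3.99 in WT. In the authors' deposited table the start peaks lay 10.4 to 31.4-fold over input in Bmal1KO, 7.76 to 23.3-fold in Mfp2KO and 6.35 to 27.3-fold in WT. The part of input in the tag ratios was not tested beyond the subtraction given with the alternatives.

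Every start peak was shared by all 3 lists. The peaks in 1 list alone had at most 30.7 tags, apart from the WT peak of 58.3 tags at Tnfaip3. That peak had more tags than the median WT peak but fewer tags per kb (19.6 against a list median of 23.9). Of the 17 WT peaks, 4 had no Bmal1KO peak (23.5%, interval 9.56 to 47.3), against 38.9% of all WT peaks, and the same 4 had no Mfp2KO peak, against 41.4%. These 4 had 5.70 to 58.3 tags and lay at Nfkb1, Nfkb2, Nfkbia and Tnfaip3. Of all WT peaks, 31.1% were absent from both knockout lists. Of the 22 Bmal1KO peaks, 8 had no WT peak (36.4%, 19.7 to 57.0), against 23.6% of the Bmal1KO list, with 8.38 to 30.7 tags. Of the 15 Mfp2KO peaks, 2 had no WT peak (13.3%, 3.74 to 37.9), against 25.4% of the Mfp2KO list, with 18.1 and 22.5 tags. Merging the lists gave 27 regions at the loci. Of these, 13 were in every list, or 48.1%, against 37.2% of all 39718 merged regions. In Bmal1KO alone there were 8, or 29.6%, against 12.6% of all regions. In Mfp2KO alone there were 2, or 7.41%, against 13.3%, in WT alone 4, or 14.8%, against 22.9%, and in exactly 2 lists 0, against 13.9%. Called length over the 6 loci came to 36.8 kb in Bmal1KO, 28.8 kb in Mfp2KO and 40.2 kb in WT.

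**Figure D4:**
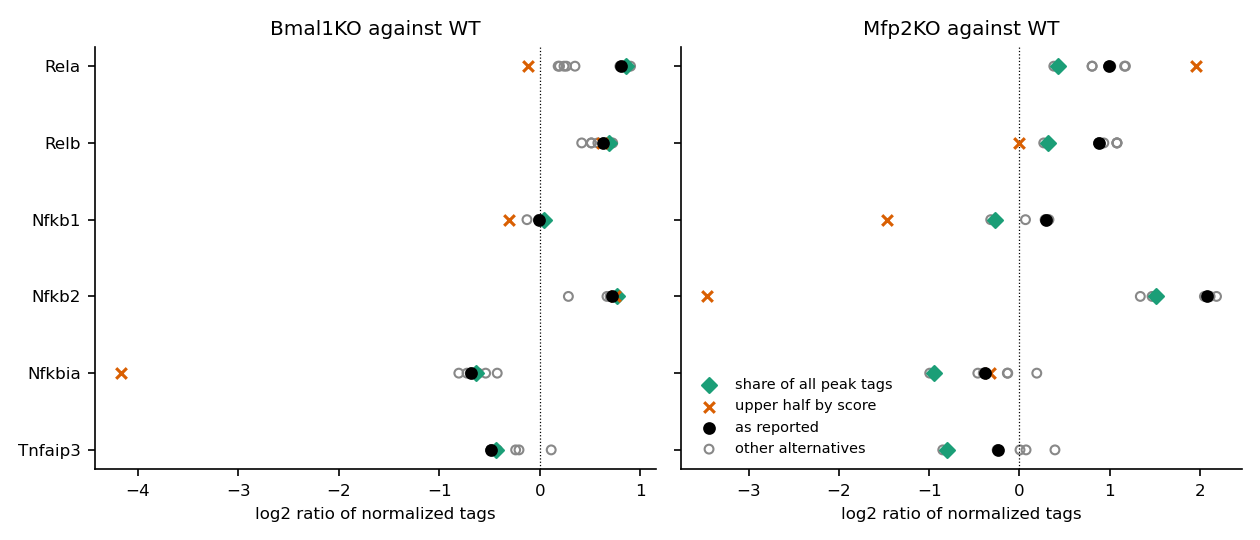
Log2 tag ratio of each locus, knockout over WT, as reported (black) and under the other ways of counting, with the share of all peak tags (diamonds) and the upper part of each list by the authors' score (crosses) marked. Nfkb2 lies right of 0 in the Mfp2KO panel except at the cross, where the Mfp2KO start peak is left out but the WT start peak is kept. Nfkbia lies left of 0 in the Bmal1KO panel under every setting.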

How the data were processed

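H3K27ac ChIP and input libraries of RAW264.7 cells, 1 of each per genotype, were compared through 3 peak lists, 1 per ChIP library and none pooled. The submitters' processing notes name build mm39 and the tools HOMER 5.1, BWA 0.7.19-r1273, fastp 1.0.1, MACS3 3.0.3, Picard 3.4.0 and SAMtools 1.23. Peaks were called by the authors from windows of 500 bp over the matching input, using findPeaks (HOMER) with its histone setting, per the file headers. The headers give a deposited p-value threshold of 0.0001 and a minimum fold (a ratio of ChIP to input) of 4. Per the file headers, the tag signal per peak was brought to 10 M total tags by the authors. The deposited score served in 1 alternative only.

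Peaks overlapping a locus by 1 bp were summed whole. The start peak was the one with most tags within 1 kb of the approximate gene start, which is the window edge less 10 kb. Ratios have 95% exact conditional (Clopper-Pearson) intervals from tags scaled back to library depth, and shares have 95% Wilson intervals. The interval calculation was tested on simulated data. A locus was called at 1.5-fold and read against 50 kb bins or merged regions of the whole genome, mainly those with at least 300 tags over the 3 lists. Windows fix what is counted, so the sums were repeated with other windows, filters and scalings, of which 3 were chosen after seeing the data. Members and lists were chosen with earlier results of these data known. The rule named all 6 members, and in each locus the start peak and every peak without a counterpart. The pathway genes and cell type markers that the rule also listed could not be placed, because the gene table is of GRCm38.p6, and are not analysed here. That table gave gene neighbours, distances and promoters, with 4 of the 6 members in the promoter table. Python 3.11.15, pandas 2.3.3, numpy 2.4.6, SciPy 1.17.1 and matplotlib 3.10.9 were used.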

Additional observations from a re-analysis of the deposited data

How the results depend on the processing

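Of 117 values recomputed under other settings, 39 moved beyond a set limit. The limit was 1.5 times for a count and 0.1 for a log2 ratio of called length. For a median tag ratio the limits were the medians of the lower and of the upper bounds of the loci's counting intervals. These limits are not an interval of the median itself. Among 49 recomputed medians, 10 changed sign. For Mfp2KO over WT the median log2 tag ratio (0.59) changed sign in 2 settings: -0.32 with the upper part of each list by score, which leaves out some start peaks and keeps 5 loci, and -0.024 relative to the median strong bin. For Bmal1KO over WT the median (0.31) was 0.085 without flanks, 0.093 with 25 kb each side and 0.17 with the tags inside the window. It was 0.13 without the peaks at or beyond the 3′ ends of Relb and Rela, and -0.11 by score. Its 3 higher loci became 1 without flanks, with 25 kb each side, with start peaks alone and without those 3′ peaks. The 1 was Relb with 25 kb each side, where the Nfkb2 log2 ratio was 0.28, and Nfkb2 in the other settings. Its 1 lower locus became 0 with 25 kb or start peaks alone and 2 by score. For Mfp2KO over WT, 3 higher and 0 lower became 1 and 2 as a share of peak tags (median 0.025) or relative to the median bin, and 1 and 3 by score. The Bmal1KO over Mfp2KO median (-0.28) changed sign in 3 settings and was -0.49 without flanks and with start peaks alone, -0.47 with 25 kb, 0.34 as a share of peak tags, 0.28 relative to the median bin and 0.62 by score. The median log2 ratio of called length in Bmal1KO (0.0013) was -0.15 without flanks and -0.25 for peaks at least 6-fold over input, and in Mfp2KO (-0.29) it was -1.14 by score and -0.072 for start peaks. The 4 WT peaks without a Bmal1KO peak, and the 4 without an Mfp2KO peak, became 2 with lists of equal length and 1 without flanks. The 8 Bmal1KO peaks without a WT peak became 2 at 6-fold and 4 without flanks, and the 2 of Mfp2KO became 1 without flanks and 5 with 25 kb. The cause was not tested beyond what each setting leaves out. Subtracting input left the locus medians at 0.36 in Bmal1KO and 0.62 in Mfp2KO. No paired analysis was possible because each genotype had 1 ChIP library, so no library could be left out either. Weak peaks rest on few tags, and at this depth their absence from a list says little.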

Other observations

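Outside the windows, acetylated regions near the loci were not counted above. Downstream of Nfkb2, 23.9 to 26.5 kb from its start, a peak had 240.1 tags in Bmal1KO, 354.9 in Mfp2KO and 204.2 in WT, and another, 33.9 to 38.2 kb from the start, had 177.5 tags in Bmal1KO, 308.0 in Mfp2KO and 228.0 in WT. The Mfp2KO excess over WT was smaller at both than at the Nfkb2 start peak, with 1051.6 tags in Mfp2KO against 248.2 in WT. In GRCm38.p6 Nfkb2 spans 11.4 kb. The starts of Psd, Fbxl15 and Cuedc2 lie 15.7, 15.8 and 26.3 kb beyond its end. Both downstream peaks thus lie near the starts of other genes, and their tags cannot be credited to Nfkb2. Beyond the 3′ end of Nfkbia, a peak 17.9 to 19.97 kb from the start had 41.1 tags in Bmal1KO, 120.4 in Mfp2KO and 46.9 in WT, and one 25.3 to 29.4 kb from the start had 81.8 tags in Bmal1KO, 174.6 in Mfp2KO and 35.8 in WT. These distal Nfkbia peaks were higher in Mfp2KO than in WT, while the start peak and the peak next to the gene were not.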
